A study of Mus musculus with 12 samples.

Results

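The kinesin motor genes were taken as every row of both count tables whose symbol is Kif or Kifc followed by a number and, in some, a letter from a to c. This rule found 41 of the 46078 genes listed. Pseudogenes, antisense transcripts and binding proteins with related symbols (Kif22-ps, Kif4-ps, Kifc5c-ps, Kif16bos, Kifap3, Kif1bp) fall outside it, as do Cenpe and Stard9, which are kinesins under other names. RNA came from brains of mouse embryos at E15.5 on a C57BL/6 background, either wild type (WT) or Nsd2 KO. In the KO line the complete Nsd2 coding sequence was removed by CRISPR/Cas9, in every cell of the animal, and the pups do not survive long after birth. Each genotype and sex had 3 libraries, 12 in all, and nothing ties a KO brain to a WT brain. Nsd2 encodes a methyltransferase that places dimethylation on lysine 36 of histone H3, and the comparison of KO with WT asks which transcripts changed in the brain without it.

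Kinesins are motor proteins that hydrolyse ATP to walk along microtubules or to take their ends apart. In dividing cells they build and move the mitotic spindle and complete cytokinesis, so their transcripts are mostly made by cycling cells. In neurons, which no longer divide, they carry vesicles, mitochondria and other cargo along axons and dendrites. Others work at the primary or motile cilium or trims microtubules. The 41 genes were placed in 3 groups by these known roles, with 14 mitotic, 17 transport and 10 cilium-related or other members. A brain at E15.5 holds both progenitors in cycle and young neurons, and in a bulk sample fewer cells of a type and less RNA per cell cannot be told apart.

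Each library held 40398665 to 59304196 counts, of which kinesins took 0.463% to 0.569%. Nsd2, named Whsc1 in the tables, was at 351 to 407 CPM (counts scaled to library size, with TMM factors) in WT and at 0.909 to 2.67 CPM in KO, so every library matched its genotype label. Transcripts encoded in mitochondria took 1.59% to 7.10% of the counts. They took 5.16% in WT female 2, 6.45% in KO female 1 and 7.10% in KO female 2, against at most 2.97% elsewhere. These libraries also had the lowest totals, 40398665 to 44411094 counts. What sets them apart is not given in the labels. Hoxa5, a gene of the hindbrain and spinal cord, was above 1 CPM in 6 libraries (WT female 3, KO female 2, KO female 3, WT male 2, WT male 3 and KO male 2) and below 1 CPM in the other 6. Over both sexes 3 WT and 3 KO lay on each side, but within a sex the sides were uneven. Of the Hox genes tested, 0 of 19 had a log2 fold change above 0, KO over WT, in males (median −2.56). In females it was 21 of 22 (median 0.95), and none passed the test given below in either sex. Within a sex, genotype and Hox level can therefore not be fully told apart. Male and female counts were deposited as separate tables, and the methods name several rRNA depletion kits and sequencers without saying which library had which. Sex can therefore not be told apart from the count table, and whether kit or sequencer followed sex is not known.

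Before their levels, the promoters of the kinesin genes are shown, because a promoter sequence is not itself read from the counts. Promoter windows of 300 bases, from 250 before to 50 after the transcription start, were present in RefSeq (GRCm38.p6) for 33 of the 41 genes. Among them were 13 of 14 mitotic, 11 of 17 transport and 9 of 10 other members. Each window was searched on both strands for TTTGAA, the core of the cell cycle genes homology region (CHR), an element known from promoters that are active in late cell cycle. CCAAT, the letters bound by the factor NF-Y, was searched in the same way. The motifs were picked after the levels had been seen, and the role groups were set with earlier results of these data known. Below are windows of the most abundant mitotic and transport members, shown as 250 bases before and 30 from the start. Capitals mark TTTGAA or CCAAT, which read TTCAAA or ATTGG when they lie on the opposite strand. Kif11 is shown at chr19:37376132-37376411 (+ strand), Kif4 at chrX:100625815-100626094 (+), Kif22 at chr7:127042391-127042670 (−), Kif5c at chr2:49619036-49619315 (+) and Kif1a at chr1:93101845-93102124 (−), the more upstream of its starts, each written 5′ to 3′ on its own strand.
Kif11: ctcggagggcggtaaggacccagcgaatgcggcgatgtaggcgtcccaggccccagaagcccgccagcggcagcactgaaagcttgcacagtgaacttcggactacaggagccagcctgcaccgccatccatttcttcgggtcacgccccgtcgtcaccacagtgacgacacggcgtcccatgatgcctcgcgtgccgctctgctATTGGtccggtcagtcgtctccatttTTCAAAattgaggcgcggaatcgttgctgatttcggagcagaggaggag
Kif4: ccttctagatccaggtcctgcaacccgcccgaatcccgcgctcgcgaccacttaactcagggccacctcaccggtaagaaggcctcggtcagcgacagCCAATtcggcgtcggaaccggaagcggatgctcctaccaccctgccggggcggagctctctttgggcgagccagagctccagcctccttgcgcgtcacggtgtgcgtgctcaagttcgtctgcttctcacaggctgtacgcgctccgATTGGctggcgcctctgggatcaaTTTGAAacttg
Kif22: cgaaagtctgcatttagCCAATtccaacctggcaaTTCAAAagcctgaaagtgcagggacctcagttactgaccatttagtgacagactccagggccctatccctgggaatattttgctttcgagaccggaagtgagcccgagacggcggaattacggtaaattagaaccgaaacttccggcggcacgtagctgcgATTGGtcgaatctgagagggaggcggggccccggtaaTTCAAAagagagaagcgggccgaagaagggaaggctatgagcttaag
Kif5c: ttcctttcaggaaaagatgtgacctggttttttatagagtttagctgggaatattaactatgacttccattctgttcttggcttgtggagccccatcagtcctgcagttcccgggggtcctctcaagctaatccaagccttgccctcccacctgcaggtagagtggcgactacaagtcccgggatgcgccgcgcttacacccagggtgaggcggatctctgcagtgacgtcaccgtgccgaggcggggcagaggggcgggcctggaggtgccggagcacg
Kif1a: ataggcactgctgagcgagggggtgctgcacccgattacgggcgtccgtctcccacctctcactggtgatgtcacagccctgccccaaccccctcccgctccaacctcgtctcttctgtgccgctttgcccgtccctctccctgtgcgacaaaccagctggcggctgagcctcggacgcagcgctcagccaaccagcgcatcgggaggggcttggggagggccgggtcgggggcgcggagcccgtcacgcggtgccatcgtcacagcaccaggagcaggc

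TTTGAA was present in 11 of 13 mitotic genes, in 1 of 11 transport genes (Kif1a, in the window of its other start) and in 2 of 9 other members (Kif26b and Kif27). Over all 27025 genes with a window, 20.2% held it. In 9 of the 13 mitotic genes a match lay within 50 bases of the start, against 5.72% of all genes. In Kif11 and Kif22 the match sat just before the start and in Kif4 just after it, each downstream of a CCAAT, as the printed windows show. The mitotic members without the letters were Kif18a and Kif2b. CCAAT was found in 9 of 13 mitotic, 3 of 11 transport and 4 of 9 other genes, against 41.1% of all genes. Both motifs occurred together in 8 mitotic, 0 transport and 2 other genes and in 7.97% of all genes. Kifc1 and Kifc5b, near-identical copies, are counted as separate genes in each of these mitotic counts. In the printed windows no marked base belonged to both motifs. These are matches of letters and were not tested as binding sites.

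**Figure D1:**
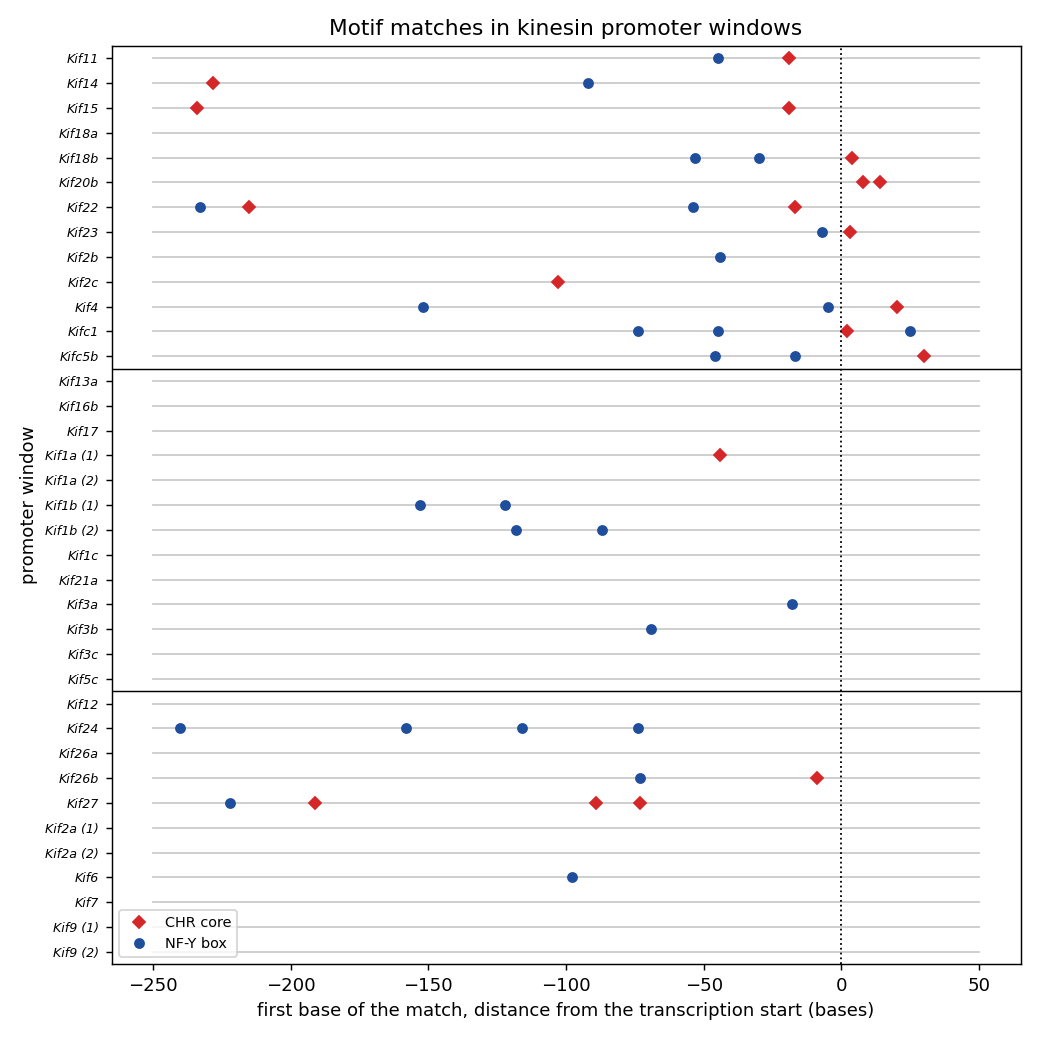
Positions of TTTGAA (CHR core, red diamonds) and of CCAAT (NF-Y box, blue circles) on either strand in the promoter windows of 33 kinesin genes, with mitotic genes at the top, transport genes in the middle and other members at the bottom, and distance from the transcription start in bases on the horizontal axis. Numbers in brackets tell apart several starts of a gene. Red diamonds gather near the start in 9 of the 13 mitotic genes, and 1 transport gene has any.

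Levels between genes were compared as RPKM, which is CPM divided by the length of the exons in kilobases. Transport kinesins made up 82.7% of the summed kinesin RPKM over the 12 libraries, mitotic kinesins 7.63% and the other members 9.72%. Above 10 RPKM on average were 10 of 17 transport genes, 0 of 14 mitotic genes and 3 of 10 others. The Kif5 heavy chains of conventional kinesin, which carry mitochondria and vesicles, held 28.4% of the total, the Kif1 genes 21.2%, the Kif21 genes 15.6% and the Kif3 genes 14.2%. These shares describe bulk brain tissue and not any 1 cell type.

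Kif5c, the neuron-enriched heavy chain, had the highest level of all kinesins. Its RPKM were 108, 110 and 98.1 in WT males, 119, 116 and 119 in KO males, 123, 115 and 96.8 in WT females and 109, 103 and 111 in KO females. In males the KO libraries lay above the WT libraries, while in females the KO range fell inside the WT range. Kif1a, which carries synaptic vesicle precursors, followed with 64.4 to 88.3 RPKM. Kif21b, a processive motor of dendrites and axons, had 51.5 to 74.6 RPKM and Kif1b, a carrier of mitochondria and vesicle precursors, 39.9 to 55.8. Kif5c did not overlap with Kif1a in any of the 12 libraries, whereas the ranges of Kif1a and Kif21b overlapped, as did those of Kif21b and Kif1b. This order depends on the gene model: with the longest transcript as the length, Kif1a had 88.2, Kif21b 81.7 and Kif1b 81.8 RPKM in WT brains, and the family shares were not recomputed on that length. Kif5a, Kif3c, Kif3a, Kif21a, Kif5b and Kif3b had means of 16.9 to 37.6 RPKM. At the low end stood Kif17, a dendritic motor, at 0.319 to 0.684 RPKM.

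The mitotic motors were all lower than any of the 10 abundant transport motors. Kif11, which slides spindle poles apart, was the highest of them, with 7.52, 5.59 and 7.13 RPKM in WT males, 9.16, 6.21 and 8.87 in KO males, 4.94, 8.03 and 6.40 in WT females and 7.42, 7.06 and 8.56 in KO females. The genotypes overlapped in each sex, and the lowest values were those of WT female 1 and WT male 2. Kif20a, which works in cytokinesis, had 3.37 to 6.72 RPKM. Kif4 and Kif22, motors that bind chromosome arms, had 3.69 to 6.28 and 2.87 to 5.99 RPKM. The ranges of these neighbours in the order overlapped throughout. Their order also depends on the gene model. With the longest transcript as the length, Kif11 had 10.2 and Kif22 5.87 RPKM in WT brains, and the mitotic members below Kif22 were not recomputed. The remaining members had means from 4.32 RPKM (Kif2c, a depolymerase at centromeres) down to 1.19 RPKM (Kif14, of the cytokinetic bridge). Kif2b was listed at 0 in every library, where 3 counts, the limit that a count of 0 allows, correspond to 0.0502 to 0.0741 CPM. Kifc1 and Kifc5b are near-identical copies, so the division of reads between them is uncertain. Their summed level was 18.2 ± 2.07 CPM in WT males, 20.8 ± 3.10 in KO males, 21.3 ± 4.49 in WT females and 22.3 ± 3.90 in KO females (SD, n = 3 each).

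Of the other members, Kif2a, a depolymerase that limits axon branches, had 23.0 to 27.1 RPKM. Kif26a and Kif26b, atypical kinesins without motor activity, had 13.9 to 21.8 and 7.87 to 14.2 RPKM. Kif7, a regulator of Hedgehog signalling at the tip of the cilium, was at 1.92 to 2.71 RPKM. Kif27, Kif24, Kif9, Kif6 and Kif19a, most of them known from cilia and centrioles, had means of 0.240 to 0.969 RPKM. Kif12 had at most 3 counts in any library and was not tested.

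**Figure D2:**
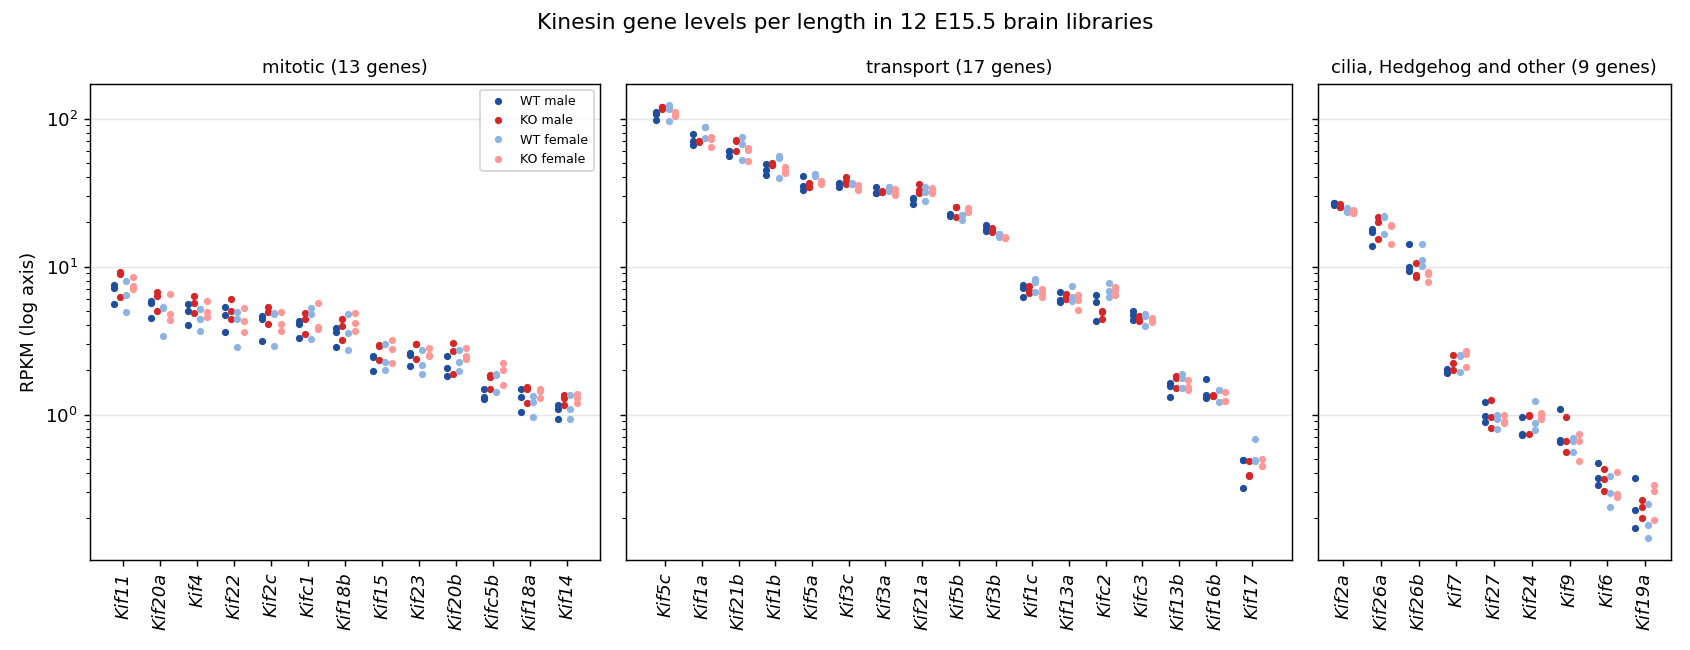
RPKM (log axis) of 39 kinesin genes in each of 12 libraries, with 1 point per library, coloured by genotype and sex, and genes ordered by mean level within the mitotic, transport and other groups. The top transport genes lie near 100 RPKM and mitotic genes all lie below 10 RPKM.

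KO was compared with WT by edgeR's quasi-likelihood test over all genes with enough counts, and a gene was called at an adjusted p (Benjamini-Hochberg) under 0.05. The p-values set the difference between KO and WT against the spread between animals within groups of 3. That spread was estimated over all libraries in a fit, with information shared between genes. In males, 0 of 39 tested kinesins passed, against 0.466% of all 18672 genes tested (0.343% lower and 0.123% higher). In females 0 of 39 passed, against 0.0214% of 18710 genes (0.0107% lower and 0.0107% higher). With both sexes in 1 fit and sex as a covariate, 0 of 39 passed, against 1.90% of 19768 genes (1.52% lower and 0.374% higher). The interaction of genotype and sex was called for 0 of 39, against 0.00% of all genes, and 0 kinesins had an unadjusted p under 0.05 there, against 4.45% of all genes. DESeq2's Wald test also called 0 kinesins in each of these comparisons.

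At an unadjusted p under 0.05 stood 4 kinesins in males (Kif21a, Kif5c, Kifc5b and Kif21b, each higher in KO), against 11.9% of all genes. In females it was 1 (Kif26b, lower), against 7.48%, and over both sexes 5 (Kif26b lower, and Kif14, Kif21a, Kif5b and Kifc5b higher), against 13.7%. Some of these names, and those in the next sentences, were chosen after their values were seen. The KO libraries all lay above the WT libraries for Kif14, Kif21a and Kif5c in males (background 8.87%) and for Kif5b in females (7.57%). They all lay below for 0 kinesins in males (8.45%) and for Kif26b, Kif3b, Kif3c and Kif5a in females (6.25%). No kinesin did so in the same direction in both sexes.

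All 13 tested mitotic kinesins had a log2 fold change above 0, KO over WT, in each sex and in the fit over both, yet none passed the test. That count depends on the assigned roles, which were set with earlier results of these data known. Kif2a, a depolymerase as is Kif2c, was placed with the other members and lay below 0 in each sex. With each library left out in turn, Kif2a ranged from −0.079 to −0.037 in males and from −0.071 to −0.021 in females. Over both sexes the median of the 13 mitotic members was 0.20 (range 0.075 to 0.25), a fold of 1.15, with 50.6% of all genes above 0 and a median of 0.0022 over all genes. In males the median was 0.20 (0.13 to 0.33), beside −0.0051 and 48.8% above 0 for all genes. In females it was 0.18 (0.017 to 0.26), beside 0.0073 and 51.6%. Kif11 had a log2 fold change of 0.25 (SE 0.13, 95% interval −0.026 to 0.53, adjusted p = 0.418 over both sexes by edgeR). Kif4 stood at 0.20 (SE 0.11, adjusted p = 0.451), Kif20a at 0.17 (SE 0.13, adjusted p = 0.654) and Kif22 at 0.14 (SE 0.14, adjusted p = 0.732). The lowest adjusted p of the group was that of Kif14, at 0.311. No 95% interval of a mitotic member reached beyond 0.53 on the log2 scale over both sexes.

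These 13 signs are not 13 separate observations, because mitotic kinesins moved together from library to library. Across the 12 libraries, each taken as the deviation of log2 CPM from the mean of its group, all 78 pairs of mitotic members correlated positively, with a median Pearson r of 0.86 (0.55 to 0.98). Of the 136 pairs of transport members 91 were positive, with a median r of 0.24. Of the 221 pairs of a mitotic with a transport member 62 were positive, with a median of −0.26. Members of a pair share their libraries, library depth and scaling. The SD of log2 CPM within groups had a median of 0.25 over mitotic and 0.11 over transport members.

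The summed CPM of the mitotic kinesins was 276, 212 and 274 in WT males, 314, 244 and 325 in KO males, 194, 295 and 259 in WT females and 274, 248 and 321 in KO females. The groups overlapped in each sex. All 13 members lay below their own mean over the 12 libraries in WT female 1, WT male 2 and KO male 2, and above it in KO female 3, KO male 1 and KO male 3. Mitotic genes took 3.45% of kinesin counts in WT female 1 and 6.41% in KO female 3, the extremes.

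Other lists moved with these libraries. The summed CPM of 7 meningeal markers, all detected, ran from 221 to 1260 in WT and from 284 to 649 in KO, and all 7 had a log2 fold change below 0 in each sex, with 0 of 7 called. Of all genes tested, 48.8% lay above 0 in males and 51.6% in females, and 0.466% and 0.0214% were called. WT male 2 and WT female 1, the libraries with the lowest mitotic sums, had the highest meningeal sums, 1260 and 866 CPM. KO male 2, with its 13 mitotic members below their means, had 449 CPM of meningeal markers. WT female 3 had 757 CPM and a mitotic sum of 259 CPM. WT male 2 also had the highest sums of choroid plexus (906 CPM), microglia (73.6 CPM) and endothelium (269 CPM) markers. WT female 1 had the lowest choroid plexus sum, 243 CPM, with 56.6 CPM of microglia and 247 CPM of endothelium markers. KO male 3, with the highest mitotic sum (325 CPM), had 550 CPM of meningeal markers. WT male 3 had the lowest meningeal sum, 221 CPM, and a mitotic sum of 274 CPM. The 14 progenitor markers, all detected, summed to 1492 to 1762 CPM in WT and 1621 to 1876 in KO. Their lowest sums were in WT female 1 and WT male 2. Over both sexes 12 of 14 lay above 0 with 0 called, against 50.6% above 0 and 1.90% called of all genes. The 14 neuron markers summed to 3199 to 3609 CPM in WT and 3042 to 3435 in KO. The part of tissue composition in the mitotic values was not tested. Without WT male 2 the mitotic median in males was 0.070, without WT female 1 that in females was 0.051, and without KO female 3 it was 0.088. With the mean log2 level of 18 Hox genes as a covariate the male median was −0.013, so its direction turned, while the female median was 0.21 and that over both sexes 0.19.

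**Figure D3:**
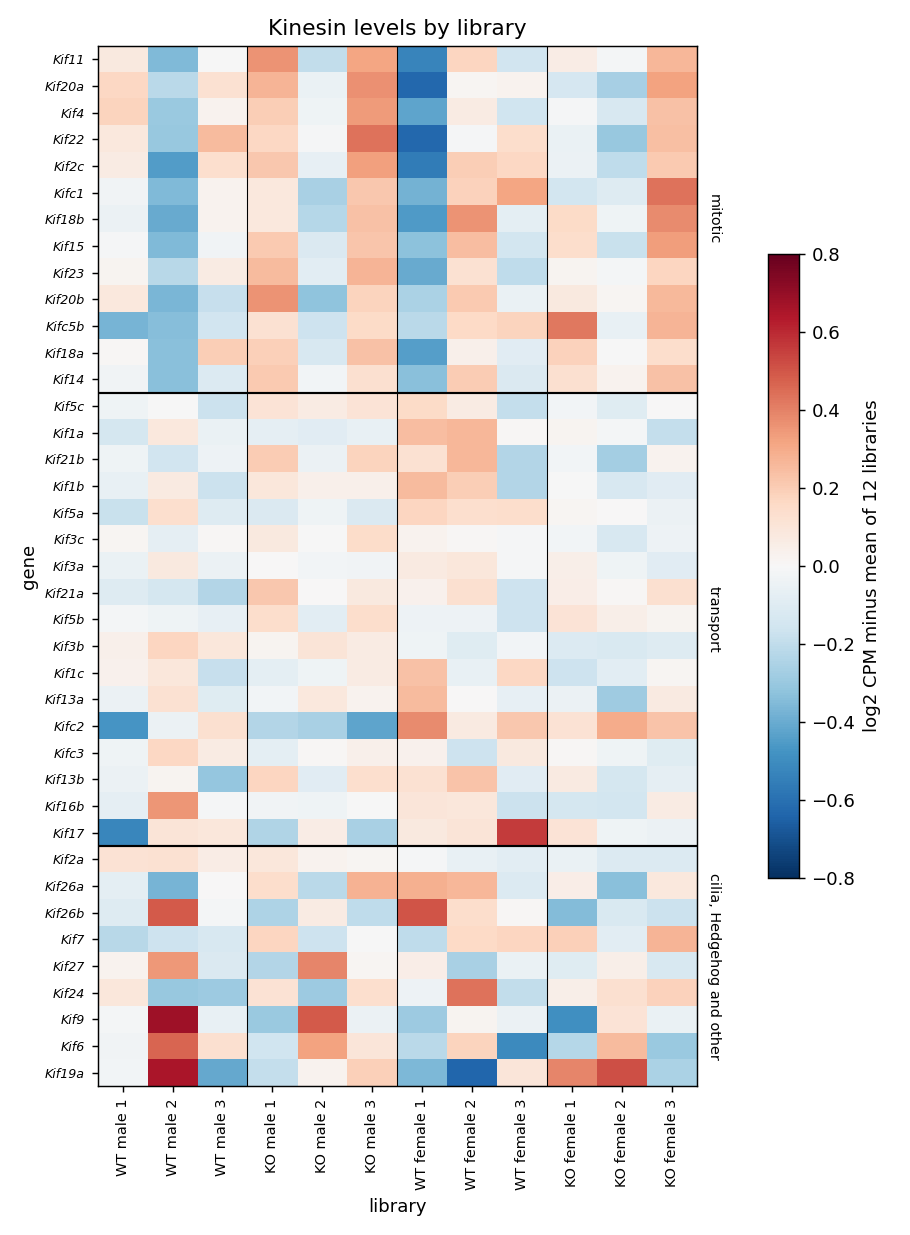
Deviation of log2 CPM from the mean of 12 libraries (red above, blue below) for 39 kinesin genes in rows and libraries in columns, with lines between groups of libraries and between mitotic, transport and other members. The 13 mitotic rows change colour together, blue in WT male 2, WT female 1 and KO male 2 and red in KO male 1, KO male 3 and KO female 3. Of the 17 transport rows 15 are above their mean in WT female 1 and 14 below it in WT male 1, with paler colours.

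The transport kinesins lay mostly below 0 in females and on either side of 0 in males, with none called. Log2 fold changes were above 0 for 8 of 17 in males (median −0.0020), 2 of 17 in females (median −0.086) and 6 of 17 over both sexes (median −0.051). On the log2 scale Kif5c differed by 0.16 in males (SE 0.066, adjusted p = 0.392 by edgeR) and −0.056 in females, and the interaction was not called (adjusted p = 0.910). Over both sexes Kif1a stood at −0.14 (SE 0.072, adjusted p = 0.424), Kif1b at −0.029 (SE 0.090, adjusted p = 0.929) and Kif21b at 0.019 (SE 0.10, adjusted p = 0.961). Kif21a, a close relative of Kif21b, had 29.2, 28.4 and 26.6 RPKM in WT males and 36.4, 31.4 and 33.1 in KO males. The male genotypes did not overlap, and the log2 fold change was 0.26 (SE 0.073, adjusted p = 0.249). In females it was 32.1, 34.2 and 27.9 RPKM in WT against 32.6, 31.5 and 34.2 in KO, which overlapped.

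WT female 1 and WT female 2 had transport sums of 4884 and 4861 CPM, above the 4027 to 4606 CPM of the other 10 libraries. Both had Hoxa5 under 1 CPM, as had 4 of the others. Without WT female 3, whose transport sum was the lowest, the female transport median was −0.16.

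**Figure D4:**
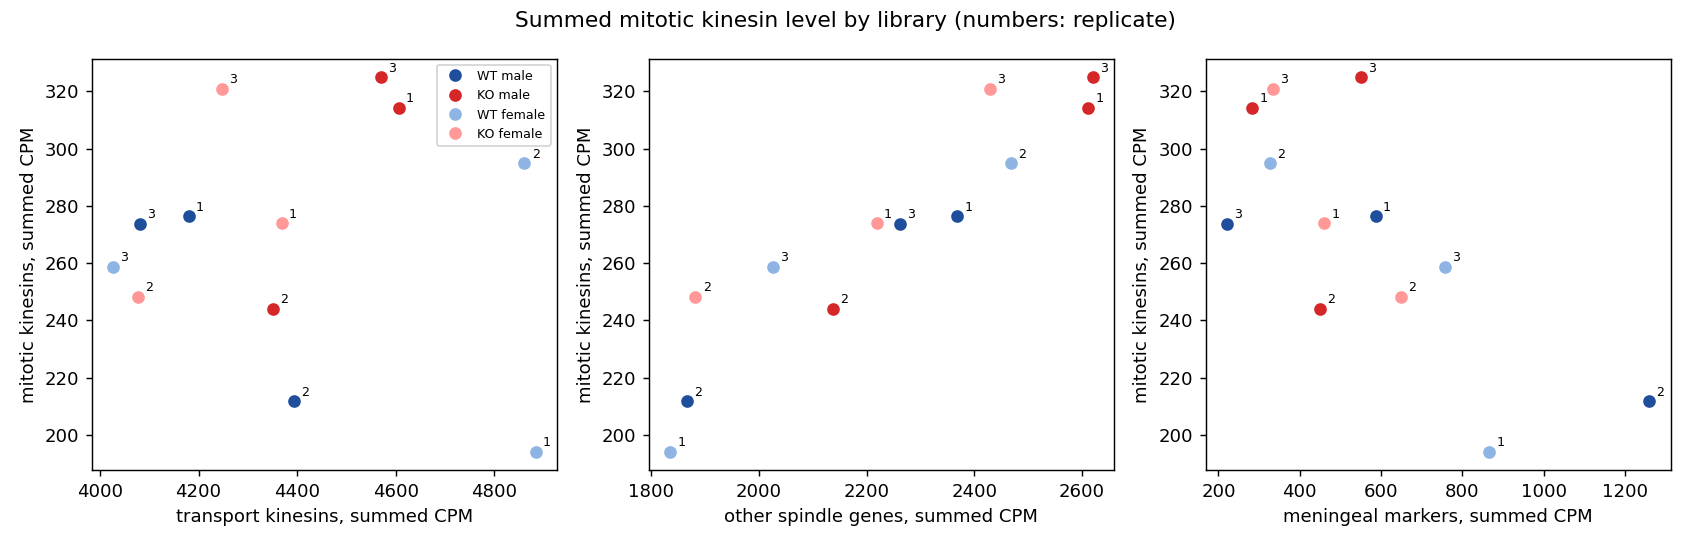
Summed CPM of the mitotic kinesins (vertical axis) against the summed CPM of transport kinesins, of 43 other spindle genes and of 7 meningeal markers (horizontal axes), with 1 point per library, coloured by genotype and sex and numbered by replicate. The mitotic sums, from 194 to 325 CPM, rise along the spindle genes and are lowest in the libraries at 866 and 1260 CPM of meningeal markers.

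Among the other members, Kif26b had the lowest adjusted p of all kinesins over both sexes. Kif26b lies on chromosome 1 from 178529125 to 178939200 (GRCm38) and is known for roles in kidney development and in cell adhesion and polarity. Its RPKM were 9.32, 14.1 and 9.91 in WT males, 8.45, 10.5 and 8.72 in KO males, 14.2, 11.0 and 10.1 in WT females and 7.87, 9.22 and 8.87 in KO females. The female genotypes did not overlap and the male genotypes did. Its log2 fold change was −0.36 over both sexes (SE 0.11, 95% interval −0.61 to −0.11, adjusted p = 0.167 by edgeR), −0.45 in females (SE 0.14, adjusted p = 0.554) and −0.27 in males (SE 0.17, adjusted p = 0.570). The highest values were those of WT female 1 and WT male 2, the libraries with the highest meningeal sums. Without WT male 2 the male log2 fold change was −0.063, and without WT female 1 the female one was −0.29. With the Hox level as a covariate the male value was −0.033, the female value −0.39 and the joint value −0.36. The joint value was −0.39 in the 6 libraries under 1 CPM of Hoxa5 and −0.17 in the 6 over it. With each library left out in turn, the male value ranged from −0.38 to −0.063 and the female value from −0.56 to −0.29. The joint value then ranged from −0.41 to −0.27. DESeq2's Wald test over both sexes gave −0.36 (adjusted p = 0.0566). What part the meningeal tissue had in this was not tested.

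Kif26a stood at 0.22 on the log2 scale in males (SE 0.14, adjusted p = 0.579 by edgeR) and −0.21 in females (SE 0.15, adjusted p = 0.783). Kif7 was at 0.13 over both sexes (SE 0.092, adjusted p = 0.594) and Kif2a at −0.049 (SE 0.041, adjusted p = 0.664). Of the 9 tested members of this group 5 lay above 0 over both sexes. WT male 2 and KO male 2 had the highest Kif9 values, 1.10 and 0.966 RPKM, and also the highest summed CPM of choroid plexus markers, 906 and 875 CPM, and of 14 ciliated cell markers, 101 and 96.4 CPM. Elsewhere the choroid sums were 243 to 634 CPM and the ciliated sums 66.7 to 89.4 CPM. The part of these cells in the Kif9 values was not tested.

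**Figure D5:**
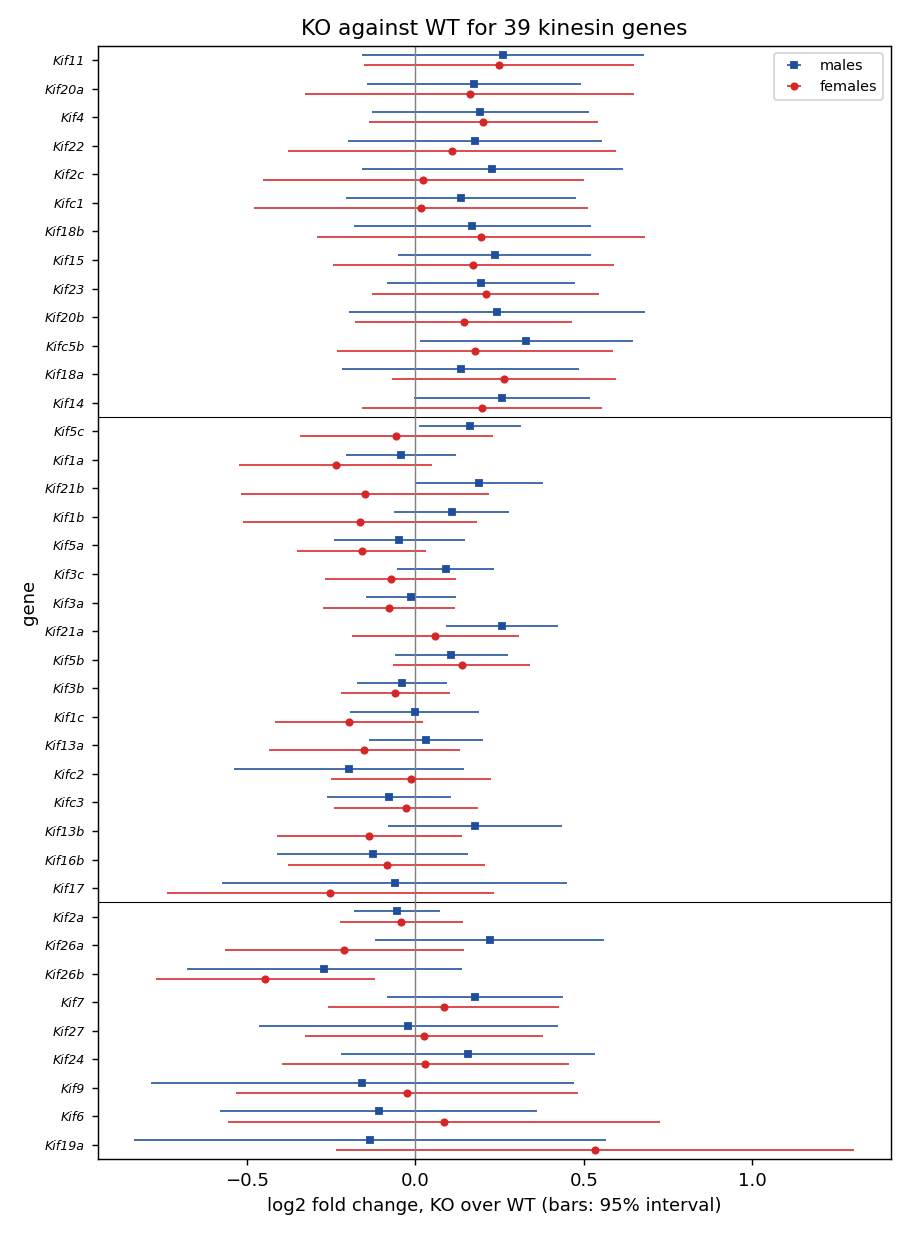
Log2 fold change, KO over WT, with 95% interval for 39 kinesin genes, in males (blue squares) and females (red circles), grouped by role with mitotic genes at the top. All 13 mitotic points lie right of 0 in each sex, between 0.017 and 0.33, and nearly all intervals cross 0.

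Genes that work with the kinesins were taken as 4 lists of 131 genes, all tested. Over both sexes 1 of them was lower in KO and 0 higher, against the background of 1.90% given above. The 43 other spindle genes (centromere, condensin, spindle assembly and cytokinesis genes) lay above 0 in 42 cases in males, 38 in females and 42 over both, the medians being 0.16, 0.21 and 0.17, and 0 were called in each comparison. Of all genes, 48.8%, 51.6% and 50.6% lay above 0. As with the mitotic kinesins, these signs share their libraries and are not separate observations. The spindle sums were also lowest in WT female 1 (1835 CPM) and WT male 2 (1866 CPM). Ckap5, which lengthens microtubules, was at 0.037 over both sexes (adjusted p = 0.870 by edgeR) and Ncapd2, a condensin subunit, at −0.063 (adjusted p = 0.942), so the most abundant of these genes were not those with the higher values.

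The called gene was Ppfia2, of the light chains and adaptors, which encodes liprin-alpha-2, a scaffold of the presynaptic active zone that binds Kif1a. It was at 105 ± 6.98 CPM in WT males and 88.1 ± 5.40 in KO males, and at 102 ± 1.96 CPM in WT females and 84.0 ± 8.001 in KO females (SD, n = 3 each). Its log2 fold change over both sexes was −0.27 (SE 0.056, 95% interval −0.39 to −0.15, adjusted p = 0.0269 by edgeR). It did not pass in males (−0.26, adjusted p = 0.243) or females (−0.28, adjusted p = 0.585) alone. The 30 light chains and adaptors had a median of −0.067 over both sexes, with 8 above 0.

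Dynein and dynactin, the motor that runs toward microtubule minus ends, had 17 of 29 genes above 0 (median 0.011) and 0 called. Dync1h1, its heavy chain, was at 745 ± 62.8 and 817 ± 37.6 CPM in WT and KO males and at 1271 ± 366 and 870 ± 59.1 CPM in WT and KO females (SD, n = 3 each). Its mean was higher in KO in males and lower in KO in females, and the interaction was not called (adjusted p = 0.910 by edgeR). The log2 fold change of Dync1h1 over both sexes was −0.21 (adjusted p = 0.606 by edgeR). Pafah1b1, the dynein regulator known as LIS1, was at 0.022 (adjusted p = 0.902). Tubulins and microtubule-associated proteins, the track itself, had 10 of 29 above 0 (median −0.030) and 0 called. Tuba1a, the main alpha-tubulin of young neurons, was at −0.018 (adjusted p = 0.950) and Map1b, of growing axons, at −0.19 (adjusted p = 0.579). Map1b in WT females varied as Dync1h1 did, at 5026 ± 1208 CPM against 3689 ± 135 in KO females.

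Between female and male brains, with genotype as a covariate, 3 of 39 kinesins passed the test, against 23.7% of all genes tested (10.9% lower and 12.9% higher in females). This is below the background share. Kifc2, a minus-end motor of neurons on chromosome 15 from 76659858 to 76668196, was higher in females. Its RPKM were 4.25, 5.72 and 6.47 in WT males, 5.03, 4.93 and 4.41 in KO males, 7.70, 6.22 and 6.86 in WT females and 6.40, 7.26 and 6.93 in KO females. The sexes overlapped only through WT male 3. The log2 fold change, female over male, was 0.44 (SE 0.095, 95% interval 0.23 to 0.64, adjusted p = 0.00524 by edgeR).

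Kif3b, the partner of Kif3a in the motor that builds cilia, was lower in females. It had 17.4, 19.0 and 17.95 RPKM in WT males, 17.1, 18.1 and 17.7 in KO males, 16.5, 15.8 and 16.6 in WT females and 15.6, 15.52 and 15.7 in KO females. The sexes did not overlap, and the log2 fold change was −0.15 (SE 0.039, adjusted p = 0.0121 by edgeR). Kif3a itself was not called.

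Kif2a was also lower in females, with 26.9, 27.1 and 26.0 RPKM in WT males, 26.5, 25.4 and 25.1 in KO males, 24.7, 23.9 and 23.5 in WT females and 24.0, 23.1 and 23.0 in KO females. The sexes did not overlap, and the log2 fold change was −0.13 (SE 0.041, adjusted p = 0.0305 by edgeR). This call was lost without WT female 2, WT male 1 or KO male 1 (adjusted p = 0.0522, 0.0586 and 0.0705) and when genes were kept only if 3 libraries exceeded 1 CPM (0.0539). The count table cannot be told apart from sex in these differences, and kit and sequencer are not known for each library.

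The Hox level was also tested as a term over the 12 libraries, with genotype and sex as covariates, because the libraries fell on either side of 1 CPM of Hoxa5. This was added after seeing the data. Called with a slope were 0 of 39 kinesins, against 1.21% of all genes tested (0.481% lower and 0.734% higher as the Hox level rose). At an unadjusted p under 0.05 stood 8 kinesins, each with a negative slope, against 18.6% of all genes. The lowest adjusted p among kinesins belonged to Kif26a (0.0644), Kif21b (0.0685) and Kif13b (0.0689) by edgeR. In the partner lists Numa1 (adjusted p = 0.0237) and Dync1h1 (adjusted p = 0.0495 by edgeR) were called, each with a negative slope. Kif21b and Kif26a were called without KO female 3, Kif21b without KO female 1, Kif13b without WT male 2 and Kif26a without WT male 3.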

How the data were processed

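The deposited values are whole read counts per gene and library, without normalization, in separate tables for males and females. To make them, the authors trimmed reads with cutadapt 2.6, aligned them with HISAT2 2.1.0 to the mm10 genome, used StringTie 2.0.6 on Ensembl transcripts and derived gene counts from its coverage, with rounding. How this divides reads between near-identical genes, and the strand setting, are not given in the sources used here. The counts hold PCR copies, so limits from counts cover counting error only.

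Counts were tested with R 4.3.3 and edgeR 4.0.16 (filterByExpr with at least 10 counts in the smallest group and 15 in total, TMM, robust quasi-likelihood F test, Benjamini-Hochberg over all genes tested), with KO against WT in each sex, with sex as a covariate over 12 libraries, and as an interaction. CPM used TMM library sizes, with a prior count of 2 for log2 values. RPKM used the union of exons in the GENCODE mouse annotation on GRCm38. Promoter windows were RefSeq's. Each model was also run on simulated data with known changes. Those changes were larger than the log2 fold changes of the mitotic kinesins, so the recovery of changes that small was not examined. The alternatives were RLE size factors, DESeq2 1.42.0, unfiltered genes, genes over 1 CPM in 3 libraries or more, spread pooled over all groups, the Hox level as a covariate, a replicate block and each library left out. The subsets by Hoxa5 and the test of the Hox level term were added after seeing the data. Figures were drawn with Python 3.11.15 and matplotlib 3.10.9.

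The members, roles and lists were chosen with earlier results of these data known. Genes named with full values were members called in any comparison, the 4 of each role with the highest RPKM, and of each partner list up to 4 called over both sexes or else the 2 with the highest CPM. Same-numbered WT and KO libraries were not paired.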

Additional observations from a re-analysis of the deposited data

How the results depend on the processing

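No kinesin was called between KO and WT under any alternative: RLE size factors, DESeq2, no filter, the CPM filter, pooled spread, the Hox level as a covariate, either Hoxa5 subset or any library left out. Replicate numbers did not pair the samples: deviations of same-numbered WT and KO libraries correlated between −0.11 and 0.27 in males and between −0.13 and 0.22 in females, and 3 of 6 WT libraries correlated best with their own number. With the replicate number as a block, 0 kinesins were called in males, females, both sexes or the interaction. With libraries left out in turn, the mitotic median ranged from 0.070 to 0.30 in males, 0.051 to 0.34 in females and 0.14 to 0.26 over both sexes, and the female transport median from −0.16 to −0.060. In the 6 libraries under 1 CPM of Hoxa5 the transport median over both sexes was 0.0096 and the mitotic median 0.19, and in the other 6 the mitotic median was 0.074. Between the sexes, DESeq2 called 2 kinesins higher in females (Kif5a and Kifc2) and the CPM filter left 1 lower. With libraries left out, 1 to 2 were lower and 1 to 2 higher, the added ones being Kifc5b without KO female 2 and Kif5a without WT male 2. The causes were not tested. With the longest transcript as length, levels in WT brains moved most for Kif1b, to 81.8 RPKM, and Kif11, to 10.2 RPKM, among the 12 members recomputed.

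The Hox level term was called for 0 to 2 kinesins, each with a negative slope, when libraries were left out in turn. With 3 animals a group, the 95% intervals of mitotic members reached as far as 0.68 on the log2 scale within a sex.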
